A study of Mus musculus with 8 samples.

Results

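The PRSS and TMPRSS genes encode, with exceptions such as *Prss16*, serine proteases of the trypsin fold and their catalytically altered relatives. Members were taken by symbol, as every row of the gene table whose mouse symbol began with Prss or Tmprss followed by a digit, which gave 55 of the 21058 genes, 38 PRSS and 17 TMPRSS. The measurements were RNA-seq of pachytene spermatocytes, the meiotic prophase cells of the testis, from 2 genotypes with 4 libraries each. The *Arid1a* cKO genotype combined *Arid1a* fl/fl with 1 copy of the *Stra8-Cre* transgene (Tg/0), which is active from spermatogonia onwards, and *Arid1a* WT males carried the same floxed allele, as *Arid1a* fl/fl or *Arid1a* fl/+, without Cre. *Arid1a* encodes a DNA-binding subunit of the SWI/SNF (BAF) chromatin remodelling complex, and the comparison asked how its loss changed transcription at pachynema. The cells were enriched by unit gravity sedimentation from pooled testes of adult males, and fractions were chosen under the microscope. Excision by *Stra8-Cre* was incomplete in this model, so *Arid1a* cKO pachytene cells included some that had escaped deletion. The authors reported that spermatocytes lacking ARID1A arrested at mid-pachynema. They also found fewer round spermatids in mutant testes during the first wave of spermatogenesis. Whether the purified cells of the genotypes differed in substage was not tested here. RNA was prepared in quadruplicate from frozen pellets, and whether the libraries came from separate purifications was not given in the sources used here, so that p-values measure the spread between these libraries, which may be technical.

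Trypsin-fold proteases cut proteins with a catalytic triad of histidine, aspartate and serine, and most are made as inactive precursors. The testis expresses many of them, in part from clusters of neighbouring paralogs, and several are known from the acrosome or the surface of sperm, where they act in sperm maturation, in the processing of the adhesion protein ADAM3 or in migration through the oviduct. TMPRSS proteins are the type of these enzymes anchored in the membrane by an N-terminal segment, and most are known from epithelia. Genes for sperm proteins are often already transcribed in pachytene spermatocytes, ahead of their use in spermatids and sperm.

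Estimated counts per library lay between 15850961 and 22044507. *Arid1a* (chr4:133679008-133756769, mm10) was at 19.6, 26.0, 26.0 and 19.1 TPM (a length-corrected share of the transcripts of a library) in *Arid1a* WT and at 14.7, 15.5, 16.3 and 15.7 TPM in *Arid1a* cKO, without overlap. It fell by 0.51 ± 0.07 (SE) on the log2 scale (adjusted p = 2.31e-05, quasi-likelihood test of edgeR, Benjamini-Hochberg adjusted, n = 4 libraries per genotype). A transcript that lacks the floxed exons still contributes reads from the other exons, so this value does not measure excision. Of the markers of other cell types, those of round and elongating spermatids were higher in *Arid1a* cKO for 16 of 16 genes measured, with a summed level of 6755.7 to 7680.1 TPM in *Arid1a* WT and 27776.9 to 29534.4 TPM in *Arid1a* cKO. Pachytene markers, 6 of 14 higher and 8 lower, summed to 7915.6 to 9009.0 and 6878.3 to 7240.4 TPM. Markers of leptotene and zygotene spermatocytes were higher for 6 of 10 and lower for 4, with sums of 1041.0 to 1133.7 and 442.6 to 467.1 TPM, and those of spermatogonia were higher for 9 of 12 and lower for 2, with sums of 126.1 to 135.1 and 124.1 to 134.6 TPM. Sertoli markers were lower for 10 of 10 (407.5 to 475.7 against 110.7 to 116.8 TPM) and Leydig markers for 6 of 7 (78.7 to 92.2 against 7.27 to 8.91 TPM). Macrophage markers were higher for 6 of 8 (5.27 to 6.44 against 11.9 to 14.4 TPM), and myoid markers for 4 of 5 (8.08 to 10.7 against 10.9 to 12.9 TPM). Of 7 mast cell markers 2 were tested and 1 was higher, and the defining proteases *Mcpt4*, *Cma1* and *Tpsb2* were at 0 in every library. The part of these other cells in the protease results was not tested, and in such bulk RNA fewer cells of a type and less RNA per cell cannot be told apart.

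The protease genes split in both directions. Of the 55 members 45 had enough counts to test (at least 10 over the 8 libraries), and 17 of them rose and 12 fell in *Arid1a* cKO, at an adjusted p of 0.05 or less by the quasi-likelihood test of edgeR, with p-values adjusted after Benjamini-Hochberg over all genes. That is 37.8% higher and 26.7% lower, or 64.4% called, beside 36.5% called higher, 37.5% called lower and 74.0% called in all among the 17643 genes tested, so that the share called was below that of all genes. The scaled counts (CPM) of the genotypes did not overlap for 27 of the 45 members, and for 68.9% of all genes tested. The median log2 fold change was 0.16 over the members tested and -0.02 over all genes tested. Unless another method is named, fold changes are those of edgeR on scaled counts. They can differ from the ratio of the TPM values beside them.

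Calls went with expression level. All 19 members that reached a mean of 5 TPM in at least 1 genotype were called, 10 higher and 9 lower, and none overlapped between genotypes. Among all 10321 tested genes of that level 87.6% were called and 84.0% did not overlap. Of 6 members with a mean of 1 to 5 TPM, 3 rose, 1 fell and 2 were not called, where 74.0% of all genes of that level were called. Among the 30 that stayed under 1 TPM in both genotypes 20 were tested, of which 4 rose and 2 fell, where 36.6% of all tested genes of that level were called. *Tmprss12* was the only TMPRSS gene in the first class. The PRSS genes were called for 23 of 29 tested (79.3%, 13 higher and 10 lower), beside 74.0% of all genes tested. The TMPRSS genes were called for 6 of 16 (37.5%, 4 higher and 2 lower). Most TMPRSS genes were under 1 TPM in both genotypes, where 36.6% of all tested genes were called.

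**Figure D1:**
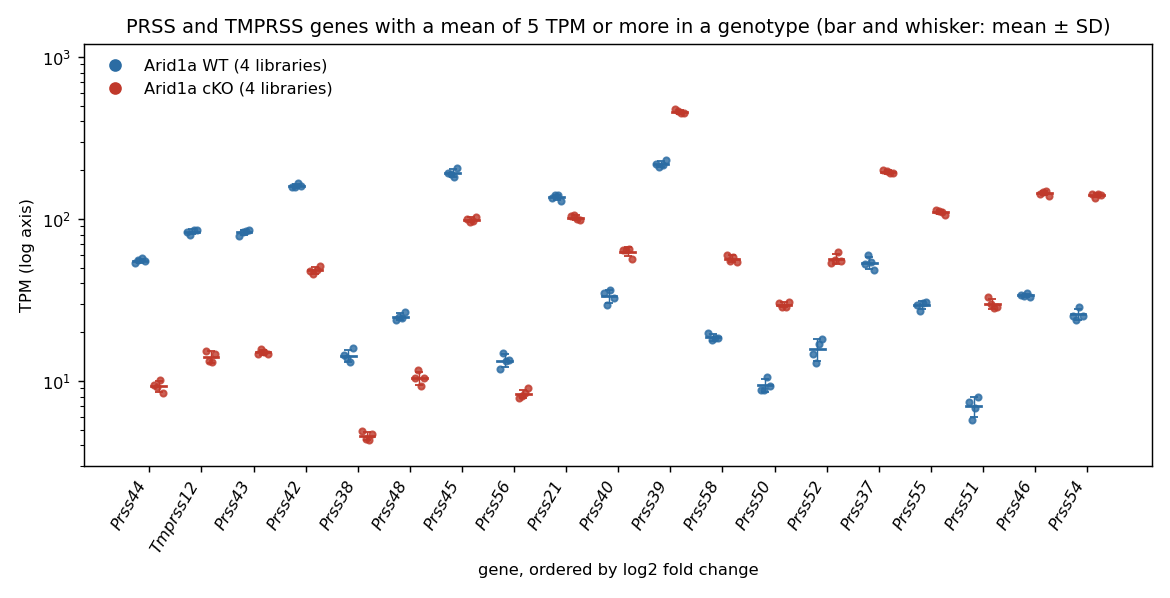
TPM (log axis) of the 19 PRSS and TMPRSS genes with a mean of 5 TPM or more in a genotype, ordered from the most lowered to the most raised gene. Dots are the 4 Arid1a WT (blue) and 4 Arid1a cKO (red) libraries, with bar and whisker for mean ± SD, and no gene has overlapping genotypes.

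The coding sequences are shown first at the site that the protease family is named for. In the common form the catalytic serine stands after a glycine and an aspartate and before a pair of glycines, a motif searched in the translation of each member's coding sequence, and where it was incomplete, or present at 2 places (*Tmprss9*), the site was taken from an alignment to *Prss21*. The complete motif was found in 41 of the 55 members. A further 6 (*Prss34*, *Prss38*, *Prss43*, *Prss46*, *Prss51* and *Prss57*) kept the serine in an altered motif, 4 had another residue there and in 4 (*Prss16*, *Prss23*, *Prss35* and *Prss37*) the site was not located in this way. The 30 bases below start 6 bases ahead of that codon, which is in capitals, and run 5′ to 3′ on the coding strand. They were read from GENCODE M21 transcripts (GRCm38, the same build as mm10), and each lies within 1 coding exon. The first 6 are the neighbours of the chromosome 9 run in their genomic order, shown because the run divides in direction and because 2 of its genes lack the serine codon.
Prss42 (chr9:110802995-110803024, plus strand, exon 5): ggagatTCTggaggcccgatgtcctgtgaa
Prss44 (chr9:110817089-110817118, plus strand, exon 5): ggagatTCTgggggccccctggtctgcgaa
Prss43 (chr9:110830782-110830811, plus strand, exon 6): ggagatTCTgggaacccccttgtctgcgaa
Prss45 (chr9:110840845-110840874, plus strand, exon 6): ggagacCCCggggggccattggcttgtgag
Prss46 (chr9:110856000-110856029, plus strand, exon 5): gacaccTCCggaagctctctggtttgccag
Prss50 (chr9:110864281-110864310, plus strand, exon 5): gagataACTggcgagcccctggtctgctct
*Prss42*, *Prss43* and *Prss44* share the serine codon TCT, *Prss45* has a proline codon and *Prss50* a threonine codon in its place, and *Prss46* keeps a serine codon in otherwise altered surroundings.

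Other members lacking the serine codon were *Prss54*, the member with the largest increase among those above 1 TPM, and *Prss58*. They are set beside *Prss55* and *Tmprss12*, which carry the complete motif and moved in opposite directions, and beside *Prss39*, the most abundant member.
Prss54 (chr8:95559793-95559822, minus strand, exon 6): ggggaaCCAggaagccctatgatgtgccag
Prss58 (chr6:40895482-40895511, minus strand, exon 6): gaagtcACGgctgccccagcagtctgcaac
Prss55 (chr14:64075765-64075794, minus strand, exon 5): ggtgacAGTgggggaccgcttgtctgcacc
Tmprss12 (chr15:100292510-100292539, plus strand, exon 5): ggtgacAGCgggggaccactaatgtgctac
Prss39 (chr1:34502624-34502653, plus strand, exon 5): ggagacTCTgggggccccctggtctgcttc
*Prss54* has a proline codon and *Prss58* a threonine codon at the site. In *Prss54* the residue aligned to the catalytic histidine of *Prss21* was a serine, whereas in the other members with a located site it was a histidine. An altered codon is a description of the sequence, and whether these proteins cut substrates was not measured.

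The chromosome 9 run holds 6 PRSS genes within chr9:110797248-110864629, and it divided at 1 point of its order. *Prss42*, *Prss44*, *Prss43* and *Prss45* fell, and the next genes along the chromosome, *Prss46* and *Prss50*, rose. *Prss42* to *Prss44* are members of the testis-specific Tessp group. *Prss42* was at 157.2, 157.4, 167.3 and 159.9 TPM in *Arid1a* WT and at 47.5, 45.7, 48.6 and 51.4 TPM in *Arid1a* cKO. This decrease was 3.02-fold (log2 fold change -1.59 ± 0.05 SE, adjusted p = 9.13e-13, quasi-likelihood test of edgeR, Benjamini-Hochberg adjusted), and every *Arid1a* cKO library lay below every *Arid1a* WT library. *Prss44* went from 53.5, 55.4, 57.2 and 55.1 TPM to 9.39, 9.23, 10.2 and 8.45 TPM. It fell 5.52-fold (log2 fold change -2.46 ± 0.06, adjusted p = 5.47e-14 by the same edgeR test). *Prss43* followed closely, from 78.0, 83.1, 84.6 and 84.8 TPM to 14.7, 15.8, 15.1 and 14.7 TPM. Its decrease was 4.97-fold (log2 fold change -2.31 ± 0.05). *Prss45*, with the proline codon shown above, went from 193.0, 188.6, 180.1 and 205.4 TPM to 100.4, 95.9, 96.4 and 102.6 TPM. It thus fell least of the 4, 1.77-fold (log2 fold change -0.82 ± 0.06), and stayed the seventh most abundant member in *Arid1a* cKO after having been the second in *Arid1a* WT.

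*Prss46*, the next gene along from *Prss45*, was at 33.8, 33.3, 34.9 and 32.8 TPM in *Arid1a* WT and at 143.4, 146.8, 149.1 and 138.1 TPM in *Arid1a* cKO. It rose 4.72-fold (log2 fold change 2.24 ± 0.05, adjusted p = 5.4e-14, quasi-likelihood test of edgeR, Benjamini-Hochberg adjusted), and the libraries of each genotype lay close together. *Prss50*, known as TSP50 and as a cancer-testis antigen with a threonine at the catalytic site, went from 8.83, 8.82, 10.6 and 9.37 TPM to 30.4, 28.6, 28.8 and 30.5 TPM. It rose 3.42-fold (log2 fold change 1.77 ± 0.07). The make-up of the run changed while its total fell. The 6 genes summed to 524.4 to 547.4 TPM in *Arid1a* WT and to 342.1 to 348.2 TPM in *Arid1a* cKO. *Prss46* and *Prss50* supplied 7.71 to 8.51% of the sum in *Arid1a* WT and 48.8 to 51.3% in *Arid1a* cKO. The neighbours *Prss45* and *Prss46* exchanged rank, *Prss46* being 13.8 to 16.2% of their sum in *Arid1a* WT and 57.4 to 60.7% in *Arid1a* cKO. Over the aligned residues, protein identity was 47.6% for PRSS42 and PRSS44, 46.7% for PRSS43 and PRSS44 and 42.2% for PRSS42 and PRSS43. PRSS48, encoded outside the run, was at 44.6% with PRSS44 and 44.4% with PRSS42. Few reads of the run could be shared: of all 31-base words of its transcripts, 0.648% of those of *Prss42*, 2.13% of those of *Prss43* and none of those of the other 4 genes occurred in another gene.

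**Figure D2:**
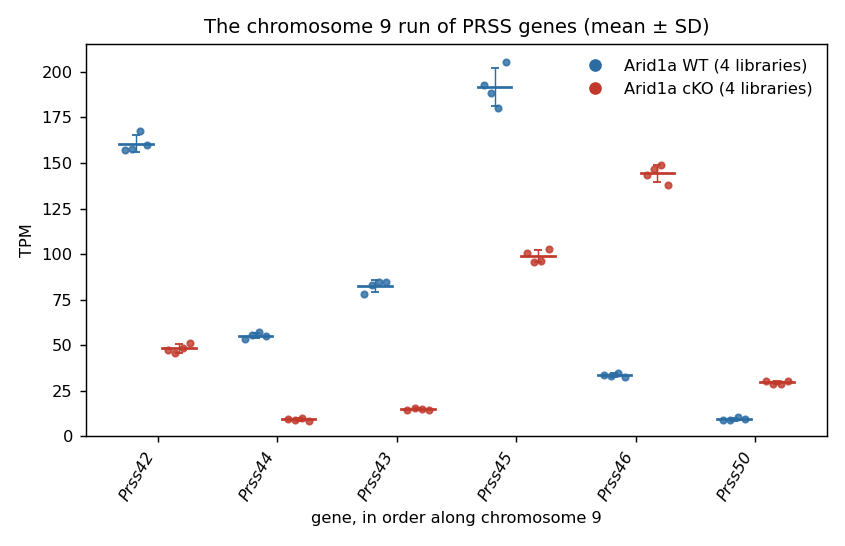
TPM of the 6 PRSS genes of the chromosome 9 run, in genomic order. Dots are single libraries (blue, Arid1a WT; red, Arid1a cKO; 4 each) with mean ± SD, and the first 4 genes are lower and the last 2 higher in every Arid1a cKO library.

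Of the members of 5 TPM or more outside the run that fell, *Tmprss12* changed most, by about as much as *Prss44*. It encodes a membrane-anchored protease needed for male fertility in mice, and it was at 83.4, 79.5, 85.2 and 85.8 TPM in *Arid1a* WT and at 15.4, 13.2, 13.1 and 14.7 TPM in *Arid1a* cKO. The decrease was 5.39-fold (log2 fold change -2.43 ± 0.07, adjusted p = 3.78e-13, quasi-likelihood test of edgeR, Benjamini-Hochberg adjusted), so that the gene moved from the fifth to the fifteenth place among the members. *Prss38* was at 14.4, 13.8, 13.1 and 15.9 TPM and at 4.93, 4.39, 4.33 and 4.69 TPM, a decrease of 2.85-fold (log2 fold change -1.51 ± 0.11). An antisense transcript, *Gm15755*, shares 13.1% of the exonic bases of *Prss38*, and the sources used here do not say whether quantification used strand, so reads from those shared bases cannot be told apart. *Prss48* was at 23.8, 24.7, 24.4 and 26.7 TPM and at 10.4, 11.7, 9.28 and 10.4 TPM, a decrease of 2.18-fold (log2 fold change -1.12 ± 0.09). Beside these decreases, the Sertoli and Leydig markers had median log2 fold changes of -1.51 and -2.94 and the pachytene markers -0.19, and their part in the decreases was not tested.

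Smaller decreases were seen in *Prss56* and *Prss21*. *Prss56*, best known for its part in eye growth, was at 11.9, 14.9, 13.2 and 13.5 TPM in *Arid1a* WT and at 7.84, 8.09, 8.43 and 9.01 TPM in *Arid1a* cKO (log2 fold change -0.54 ± 0.07, adjusted p = 1.2e-05, quasi-likelihood test of edgeR, Benjamini-Hochberg adjusted). *Prss21* encodes testisin, a protease anchored by a lipid tail on germ cells and sperm. It was at 134.8, 140.3, 139.9 and 129.3 TPM in *Arid1a* WT and at 103.8, 105.4, 100.4 and 98.4 TPM in *Arid1a* cKO. Its decrease of 1.32-fold was the smallest among the 19 members of 5 TPM or more (log2 fold change -0.40 ± 0.05, adjusted p = 2.43e-06 by the same edgeR test), though still without overlap. Its closest relative among the pairs compared, *Prss41* (51.2% protein identity), was far less abundant, at 4.73, 4.88, 4.53 and 4.81 TPM against 4.25, 5.2, 4.28 and 3.31 TPM, and was not called (log2 fold change -0.03 ± 0.14, adjusted p = 0.853 by the same edgeR test).

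Among the members of 5 TPM or more that rose, *Prss54* changed most. It was at 25.3, 23.9, 28.6 and 25.3 TPM in *Arid1a* WT and at 142.2, 134.7, 142.2 and 141.4 TPM in *Arid1a* cKO. The increase was 5.89-fold (log2 fold change 2.56 ± 0.06, adjusted p = 6.15e-14, quasi-likelihood test of edgeR, Benjamini-Hochberg adjusted), and the gene went from the twelfth to the fourth place among the members. *Prss37* and *Prss55* encode proteins that sperm need for ADAM3 maturation and for passage into the oviduct. *Prss37* went from 52.8, 59.5, 54.3 and 48.3 TPM to 198.9, 197.8, 190.7 and 191.5 TPM. It rose 4.04-fold by edgeR (log2 fold change 2.01 ± 0.05), and was the second most abundant member in *Arid1a* cKO. *Prss58*, also on chromosome 6, was at 19.9, 17.8, 18.4 and 18.5 TPM and at 59.7, 55.1, 58.5 and 54.5 TPM, an increase of 3.35-fold (log2 fold change 1.75 ± 0.07). Beside these increases, the spermatid markers described above rose with a median log2 fold change of 2.18, and their part in the increases was not tested. The 3 trypsinogen genes of chromosome 6, *Prss1*, *Prss2* and *Prss3*, were too low to test.

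*Prss55*, *Prss51* and *Prss52* lie close together on chromosome 14 (chr14:64075435-64113751), and all 3 rose. Among all genes tested 36.5% were called higher, and among those of 5 TPM or more 87.6% were called in either direction. With 3 genes this is a count, and no difference from these shares was tested. *Prss55* was at 29.4, 27.1, 30.2 and 30.7 TPM in *Arid1a* WT and at 113.7, 111.1, 110.9 and 106.4 TPM in *Arid1a* cKO, a 4.15-fold increase (log2 fold change 2.05 ± 0.06, adjusted p = 7.99e-13, quasi-likelihood test of edgeR, Benjamini-Hochberg adjusted). *Prss51* was at 7.4, 5.76, 6.77 and 8.02 TPM and at 32.9, 29.9, 28.0 and 28.5 TPM (log2 fold change 2.06 ± 0.11). *Prss52* was at 14.7, 12.9, 17.0 and 18.2 TPM and at 53.5, 55.6, 62.1 and 54.8 TPM (log2 fold change 1.98 ± 0.10). Their log2 fold changes lay between 1.98 and 2.06, so that this group, unlike the chromosome 9 run, moved in a single direction. Together they made 45.8 to 56.9 TPM in *Arid1a* WT and 189.7 to 201.0 TPM in *Arid1a* cKO.

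*Prss39* and *Prss40*, which encode the acrosomal proteases TESP1 and TESP2, rose by less. *Prss39* was the most abundant member in both genotypes, at 219.5, 209.5, 215.2 and 230.7 TPM and at 476.1, 462.7, 450.7 and 447.6 TPM, an increase of 2.3-fold (log2 fold change 1.20 ± 0.06, adjusted p = 1.13e-10, quasi-likelihood test of edgeR, Benjamini-Hochberg adjusted). *Prss40* was at 35.1, 29.3, 36.4 and 32.7 TPM and at 64.5, 64.6, 65.5 and 56.7 TPM, an increase of 2.07-fold (log2 fold change 1.05 ± 0.07). The proteins are 48.9% identical, and 2.18% of the 31-base words of *Prss39* and 1.36% of those of *Prss40* were shared with another gene. *Prss40* also overlaps *Cfc1* on the opposite strand over 13.7% of its exonic bases, with the same limit on the shared bases as above. The summed level of all members rose with these genes, from 1203.4 to 1247.2 TPM in *Arid1a* WT to 1579.4 to 1645.8 TPM in *Arid1a* cKO, or from 0.149 to 0.158% of the deposited TPM total to 0.179 to 0.186%.

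**Figure D3:**
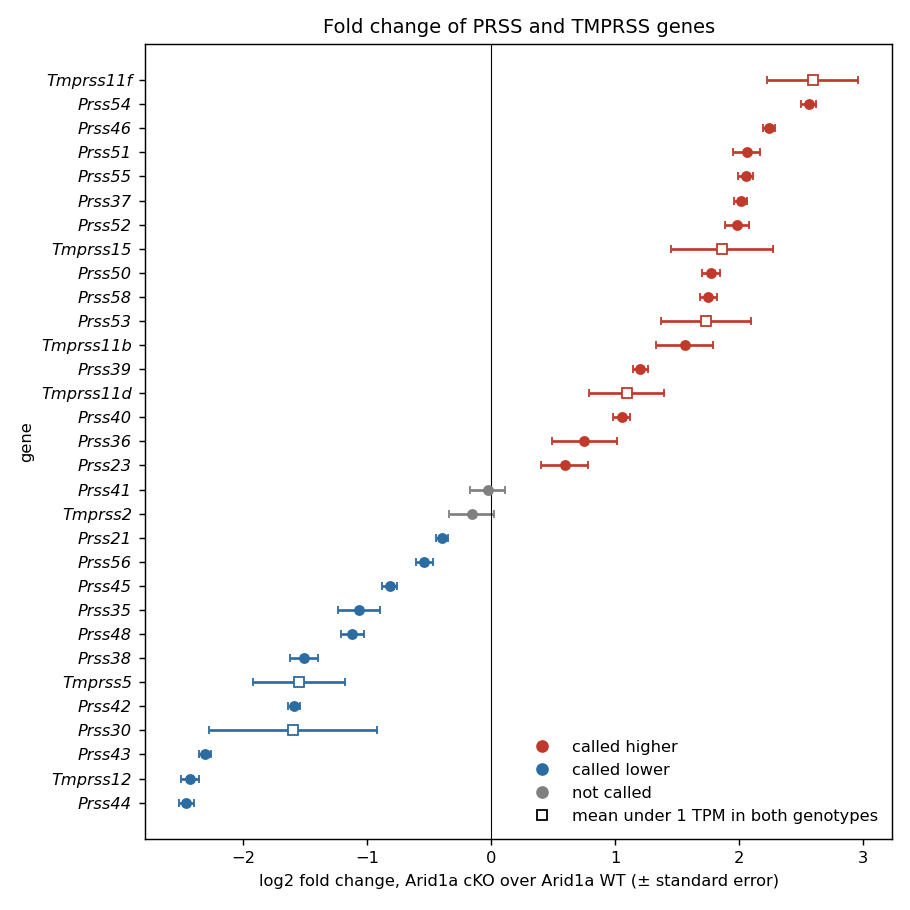
Log2 fold change (Arid1a cKO over Arid1a WT, ± standard error, edgeR) of the 31 members with a mean of 1 TPM or more in a genotype or with a call. Red genes were called higher, blue genes lower and grey genes not called, and open squares mark genes under 1 TPM in both genotypes, whose errors are wider.

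The order of levels changed accordingly. In *Arid1a* WT the leading members were *Prss39*, *Prss45*, *Prss42*, *Prss21* and *Tmprss12*, each of the first 4 above the next in every library, while *Tmprss12* and *Prss43* overlapped. *Prss44* overlapped with *Prss37*, and *Prss46*, *Prss40*, *Prss55*, *Prss54* and *Prss48* formed a chain in which neighbours overlapped. In *Arid1a* cKO the leading members were *Prss39*, *Prss37*, *Prss46*, *Prss54* and *Prss55*. *Prss46* and *Prss54* overlapped there, as did *Prss21* with *Prss45*. *Prss39* was the only gene among the first 5 of both orders. These levels are TPM, which are per transcript length and can be set beside each other between genes.

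Grouped by the catalytic-serine site, members of 5 TPM or more were found on both sides. Of 10 with the complete motif 4 rose (*Prss39*, *Prss40*, *Prss52*, *Prss55*) and 6 fell, with a median log2 fold change of -0.47. Of 4 with a serine in an altered motif 2 rose (*Prss46*, *Prss51*) and 2 fell (*Prss38*, *Prss43*). Of the 4 without a serine codon 3 rose (*Prss50*, *Prss54*, *Prss58*) and *Prss45* fell, with a median of 1.76. *Prss37*, where the site was not located, rose. All 19 were called, where 87.6% of all tested genes of that level were called. With 1 to 10 genes a class these are counts, and no difference between the classes was tested.

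**Figure D4:**
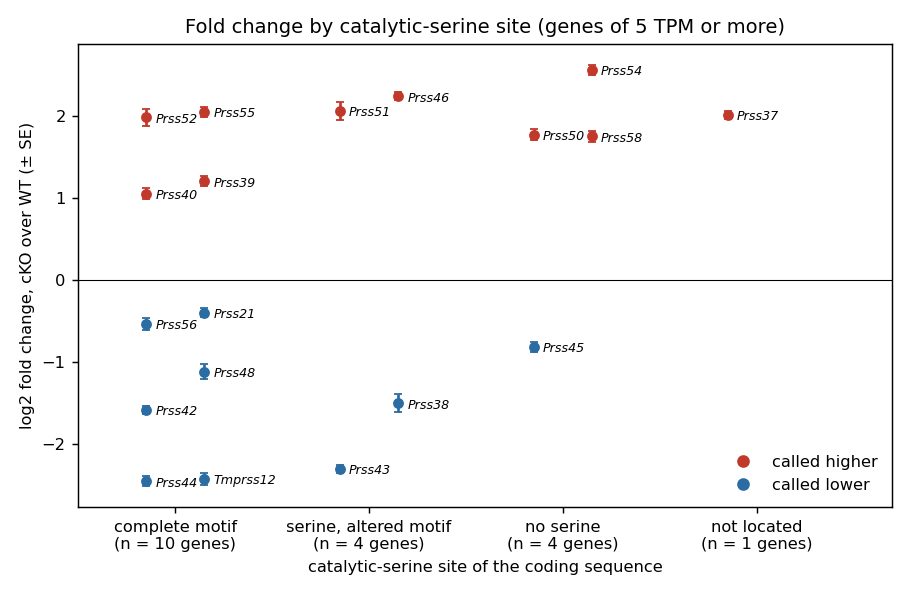
Log2 fold change (± SE) of the 19 members of 5 TPM or more, by the state of the catalytic-serine site in the coding sequence. Each dot is a gene (red, higher; blue, lower in Arid1a cKO), and both directions occur in every class of more than 1 gene.

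Members of 1 to 5 TPM included genes known from other tissues. *Prss35*, a secreted protease-like gene described in the ovary, was at 2.3, 3.21, 3.56 and 2.58 TPM in *Arid1a* WT and at 1.24, 1.62, 1.07 and 1.04 TPM in *Arid1a* cKO, and fell (log2 fold change -1.07 ± 0.17, adjusted p = 3.85e-05, quasi-likelihood test of edgeR, Benjamini-Hochberg adjusted). *Prss23*, its relative, was at 0.705, 1.04, 0.815 and 0.723 TPM and at 1.06, 1.19, 1.07 and 1.04 TPM and rose (log2 fold change 0.59 ± 0.19, adjusted p = 0.0107 by the same edgeR test). The call was lost with limma on log2(TPM + 0.1) (adjusted p = 0.0779), and an antisense gene, *Prss23os*, covers 22.9% of its exonic bases. *Prss36*, which encodes a protein with several protease domains in tandem, was at 1.19, 0.978, 1.84 and 1.35 TPM and at 1.11, 2.49, 2.15 and 2.05 TPM, with overlap, and its call (log2 fold change 0.75 ± 0.26, adjusted p = 0.0188 by the same edgeR test) was lost without *Arid1a* WT replicate 2, *Arid1a* cKO replicate 2 or *Arid1a* cKO replicate 4 (adjusted p = 0.0576, 0.0557 and 0.0597), with length offsets in edgeR (0.0646) and with limma on log2(TPM + 1) and log2(TPM + 0.1) (0.11 and 0.125). *Tmprss2*, a protease of prostate and airway epithelium, was at 1.19, 0.924, 0.858 and 1.38 TPM and at 1.86, 1.28, 1.62 and 0.868 TPM. It was not called (log2 fold change -0.16 ± 0.18, adjusted p = 0.415 by the same edgeR test), and the sign of its difference depended on whether counts or length-adjusted values were compared.

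The TMPRSS genes apart from *Tmprss12* summed to only 4.15 to 6.09 TPM in *Arid1a* WT and 6.09 to 6.7 TPM in *Arid1a* cKO. The TMPRSS11 cluster on chromosome 5, whose proteins are airway and skin proteases, held 7 members, of which 6 were tested. By edgeR 3 of these rose and 0 fell (0 also at an unadjusted p under 0.05 in that test), or 50% called. Among all genes tested 36.5% were called higher, and among genes under 1 TPM 36.6% were called in either direction. With 6 genes this is a count, and no difference from these shares was tested. *Tmprss11b* was at 0.292, 0.623, 0.834 and 0.532 TPM in *Arid1a* WT and at 1.52, 1.12, 1.74 and 1.66 TPM in *Arid1a* cKO (log2 fold change 1.56 ± 0.23, adjusted p = 2.38e-05, quasi-likelihood test of edgeR, Benjamini-Hochberg adjusted). *Tmprss11f* was at 0.0598, 0.156, 0.109 and 0.0741 TPM and at 0.481, 0.85, 0.353 and 0.561 TPM (log2 fold change 2.59 ± 0.37), from 125 counts over the 8 libraries. *Tmprss11d* was at 0.419, 0.296, 0.648 and 0.31 TPM and at 0.871, 0.578, 1.03 and 0.632 TPM (log2 fold change 1.09 ± 0.30), where the TPM overlapped and the CPM did not. With limma on log2(TPM + 1), which compresses low values, the log2 fold changes of *Tmprss11b*, *Tmprss11f* and *Tmprss11d* were 0.68, 0.50 and 0.33. All 3 stayed below 2 TPM in every library.

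**Figure D5:**
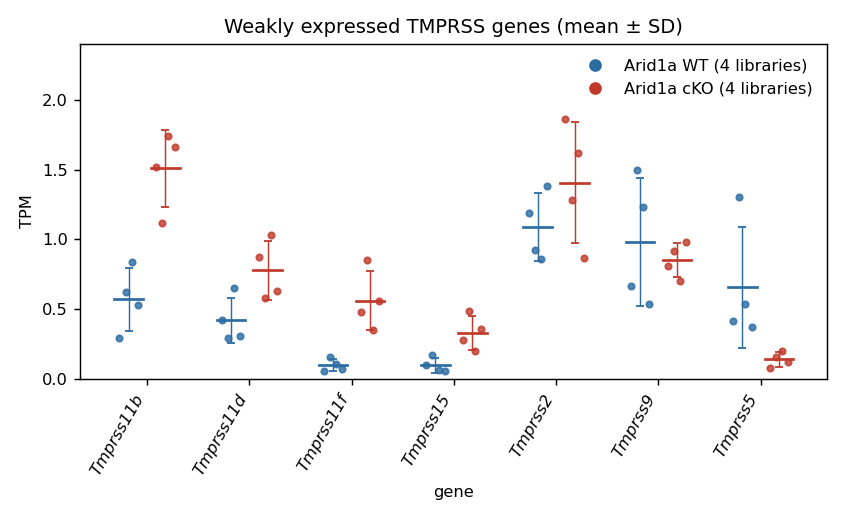
TPM of 7 weakly expressed TMPRSS genes by library (blue, Arid1a WT; red, Arid1a cKO; 4 each, mean ± SD). Tmprss11b, Tmprss11d, Tmprss11f and Tmprss15 were called higher and Tmprss5 lower, and the TPM of Tmprss2, Tmprss9 and Tmprss11d overlap between genotypes.

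*Tmprss15*, which encodes enterokinase, the intestinal activator of trypsinogen, was at 0.0974, 0.172, 0.0639 and 0.0544 TPM in *Arid1a* WT and at 0.275, 0.488, 0.197 and 0.358 TPM in *Arid1a* cKO, a difference that rests on 83 counts in all (log2 fold change 1.86 ± 0.41, adjusted p = 0.000971, quasi-likelihood test of edgeR, Benjamini-Hochberg adjusted). *Tmprss5* was at 0.415, 1.3, 0.537 and 0.372 TPM and at 0.0758, 0.159, 0.198 and 0.123 TPM and fell, the second *Arid1a* WT library standing above the other 3 (log2 fold change -1.55 ± 0.37, adjusted p = 0.00169 by the same edgeR test), on 67 counts. *Prss53* rose (log2 fold change 1.73 ± 0.36, adjusted p = 0.000535 by the same edgeR test), from 0.228 to 0.335 TPM in *Arid1a* WT to 0.42 to 1.33 TPM in *Arid1a* cKO. It shares 75.3% of its 31-base words with another gene, chiefly *Gm21974*, an overlapping gene model on the same strand, so its level is uncertain. With limma on log2(TPM + 1) the log2 fold changes of *Tmprss15*, *Tmprss5* and *Prss53* were 0.27, -0.51 and 0.51. Those of *Prss23*, *Prss36* and *Prss30* were 0.20, 0.32 and -0.34 there. *Prss30* had 6, 5, 10 and 8 counts in *Arid1a* WT and 0, 0, 5 and 3 in *Arid1a* cKO. It was called lower (log2 fold change -1.60 ± 0.68, adjusted p = 0.0474 by the same edgeR test), but with overlapping CPM, and the call was lost under DESeq2, with DESeq2 size factors and with length offsets (adjusted p = 0.0762, 0.0504 and 0.0534) and without any 1 of 5 libraries, namely *Arid1a* WT replicates 1, 3 and 4 and *Arid1a* cKO replicates 1 and 2 (adjusted p = 0.0601, 0.0974, 0.0679, 0.115 and 0.11). Its log2 fold change ranged from -2.44, without *Arid1a* cKO replicate 3, to -1.19, without *Arid1a* cKO replicate 1.

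The other 14 tested members under 1 TPM were not called, with log2 fold changes between -1.59 and 2.12, standard errors between 0.26 and 1.09 and adjusted p-values between 0.0797 and 0.968 in the same edgeR test. They were *Prss8* (prostasin, a regulator of epithelial sodium channels), *Prss12* (neurotrypsin), *Prss16* (the thymus-specific serine protease, of another protease family), *Prss32*, *Prss33*, *Tmprss3*, *Tmprss4*, *Tmprss6* (matriptase-2, a regulator of hepcidin), *Tmprss7*, *Tmprss9*, *Tmprss11a*, *Tmprss11e*, *Tmprss11g* and *Tmprss13*. Their totals were 10 to 348 counts over the 8 libraries, and for the lowest of them the standard errors were as wide as many of the fold changes above. The 10 members that were not tested had 0 to 7 counts in all. *Prss1*, *Prss3*, *Prss27*, *Prss29* and *Tmprss11c* had none, which allows up to 3 counts, or 0.0192 CPM over the 8 libraries (counting error only). *Prss2*, *Prss22*, *Prss28*, *Prss34* and *Prss57* had 3 to 7. *Prss28* and *Prss29* are known as implantation proteases of the uterus and *Prss34* as a mast cell protease. Reads of *Prss1* and *Prss3* could be split with near copies, since 69.3% and 75.4% of their 31-base words occur in another gene.

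Other proteases of the fold, serine protease inhibitors and sperm protease partners were counted from fixed lists. Of 43 trypsin-fold proteases outside the Prss and Tmprss symbols (acrosin, granzymes, kallikreins, trypsinogens and others) 27 were tested, 10 rose and 4 fell, with a median log2 fold change of 0.77. The share that rose was close to the 36.5% of all genes tested, and the share called was below their 74.0%. *Acr*, which encodes acrosin, the main acrosomal protease, was at 286.1, 279.3, 273.2 and 282.8 TPM in *Arid1a* WT and at 336.1, 311.4, 340.5 and 306.7 TPM in *Arid1a* cKO. It rose by 0.29 ± 0.05 on the log2 scale (adjusted p = 8.54e-05, quasi-likelihood test of edgeR, Benjamini-Hochberg adjusted), less than any of the 10 raised members of 5 TPM or more. *Gzmn*, a granzyme gene expressed in testis, had a log2 fold change of 2.38 ± 0.08, *Try5*, a trypsinogen with near copies and so of uncertain level, 2.57 ± 0.15, and *Klkb1*, plasma kallikrein, 0.93 ± 0.07. All 4 rose, and they were named because they had the highest TPM of the list.

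Of 80 genes for serine protease inhibitors (SPINK, SERPIN and SPINT) 49 were tested, of which 18 rose and 15 fell, with a median of 0.33, the share that rose being close to the 36.5% and the share that fell below the 37.5% of all genes tested. The most abundant, however, fell, and the summed level went from 1985.4 to 2032.5 TPM in *Arid1a* WT to 1293.5 to 1369.4 TPM in *Arid1a* cKO. *Spink2*, which encodes an inhibitor of acrosin in the acrosome, was at 1482.3, 1516.0, 1498.6 and 1508.0 TPM and at 1000.3, 998.0, 1049.0 and 1073.7 TPM (log2 fold change -0.42 ± 0.05, adjusted p = 2.74e-06, quasi-likelihood test of edgeR, Benjamini-Hochberg adjusted). *Serpinb6a* (log2 fold change -0.41 ± 0.07), *Spint2*, an inhibitor of membrane-anchored proteases (-0.92 ± 0.05), and *Serpina3a* (-2.08 ± 0.08) fell too. The totals of the members and of the inhibitors thus moved in opposite directions on the TPM scale, the inhibitor total being mostly *Spink2*. By gene the inhibitors were mixed, as 18 rose and 15 fell.

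The list of sperm protease partners and of the ADAM3 route held 18 genes, all tested, of which 9 rose and 6 fell, with a median of 0.21, beside 36.5% and 37.5% of all genes tested. *Adam3* itself, the sperm adhesion protein whose maturation requires PRSS37 and PRSS55, was at 730.8, 708.4, 694.0 and 723.9 TPM in *Arid1a* WT and at 997.0, 966.1, 961.0 and 891.5 TPM in *Arid1a* cKO. It rose by 0.46 ± 0.06 on the log2 scale (adjusted p = 6.95e-06, quasi-likelihood test of edgeR, Benjamini-Hochberg adjusted). *Clgn*, the gene for calmegin, a chaperone of the ADAM3 route, fell from 892.5, 902.9, 912.9 and 971.8 TPM to 551.7, 533.5, 552.5 and 526.1 TPM (log2 fold change -0.75 ± 0.05). Of the paired genes *Cmtm2a* and *Cmtm2b*, *Cmtm2a* was called higher (log2 fold change 0.27 ± 0.08, adjusted p = 0.0075 by the same edgeR test), with overlapping TPM, and *Cmtm2b* was not called (-0.01 ± 0.07, adjusted p = 0.923). With limma on log2 TPM *Cmtm2b* was called lower and *Cmtm2a* was not called, whereas with length offsets in edgeR both kept the calls given here. The list as a whole was thus mixed in direction.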

How the data were processed

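Pachytene spermatocyte RNA-seq libraries of *Arid1a* WT and *Arid1a* cKO (n = 4 each, grouped by their labels) were analysed. The authors quantified reads with Salmon against mm10 transcripts and summarized them per gene with tximport, and deposited estimated counts and, separately, TPM (versions not given in the sources used here). Estimated counts were rounded to whole numbers. TPM summed to 780735 to 811443 per *Arid1a* WT library and 880901 to 886412 per *Arid1a* cKO library, so that TPM levels are set side by side and the tests rest on counts. A deposited table of the authors' own DESeq2 comparison (log2 fold changes, p-values) was not used.

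Entrez identifiers were matched to RefSeq symbols for 21036 of 21058 genes. *Prss47* was not analysed here. Genes with at least 10 summed counts were fitted with edgeR 4.0.16 (R 4.3.3; TMM, quasi-likelihood, genotype as the only term, Benjamini-Hochberg over all genes, called at 0.05), with SE = |log2 fold change|/√F, after tests on simulated data. The common biological coefficient of variation was 0.0709. Alternatives were DESeq2 1.42.0, other scalings and count filters, length offsets, a stricter adjusted p of 0.01, a replicate block, limma 3.58.1 on TPM (log2 scale, pseudocounts of 1 and of 0.1), leaving out each library, and, added after seeing the data, members of at least 1 TPM only. Members were named if at 1 TPM or more in a genotype, with every library's value at 5 TPM or more, or if called below that, and context genes by the 4 highest mean TPM per list. *Prss30*, called with CPM that overlapped and TPM that did not, was named after its values were seen. Members and lists were chosen with earlier results of these data known. Coding sequences, shared 31-base words and exon overlaps came from GENCODE M21, identities from global alignments (Biopython 1.88).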

Additional observations from a re-analysis of the deposited data

Results flagged for a closer look

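In 52 groups of 4 libraries (the 25 members of 1 TPM or more and *Arid1a*, in each genotype) the gap between the extreme library and its nearest neighbour was compared with the range of the group. Chance alone flags about 1 in 20 such groups, or 2.6 of 52, and 3 were found, all in *Arid1a* cKO. *Prss54* was low in replicate 2, at 134.7 TPM beside 141.4 to 142.2 TPM in the others, a gap of 0.89 of the range. *Prss40* was low in replicate 4, at 56.7 TPM beside 64.5 to 65.5 TPM, a gap of 0.883 of the range. *Prss23* was high in replicate 2, at 1.19 TPM beside 1.04 to 1.07 TPM, a gap of 0.851 of the range. Leaving out these libraries changed none of the 3 calls.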

How the results depend on the processing

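Members called higher numbered 15 to 18, and members called lower 10 to 14, over the alternatives other than a restriction to members of 1 TPM or more, against 17 and 12 reported. Among members of 1 TPM or more, an alternative chosen after seeing the data, 13 were called higher and 10 lower. Leaving out 1 library gave 16 to 18 higher and 11 to 12 lower. The replicate block gave 17 higher and 12 lower. Same-numbered libraries did not deviate together (correlations -0.09 to 0.2), so the numbers were not taken as pairs. Single fold changes were recomputed 746 times for 44 genes. Of these 716 kept direction and side of the threshold, 17 lost and 2 gained the call (*Cmtm2b*, -0.14 with limma on either log2 TPM scale), and 11 changed sign, all in genes that were not called. *Tmprss2* turned to 0.45 with length offsets, to 0.19 with limma on log2(TPM + 1) and to 0.32 with log2(TPM + 0.1). *Cmtm2b* turned to 0.02 with DESeq2 and with its size factors, to 0.01 with a stricter count filter, and ranged from -0.06 to 0.08 with 1 library left out. *Prss41* ranged from -0.09 to 0.06 with 1 library left out. The cause was not tested. Lost calls were those of *Prss30* (8 alternatives), *Prss36* (6), *Cmtm2a* (2) and *Prss23* (1). The stricter count filter left *Prss30* and *Tmprss5* untested, which is not counted among the lost calls. Scaling by library size alone moved the median of all genes from -0.02 to -0.12. Depth limits the members under 1 TPM, whose standard errors reached 1.09.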
